A study of Mus musculus with 4 samples.

Results

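Gfap, Vim and Nes, which encode the intermediate filament proteins of glia, were followed in astrocyte cultures from 4 mouse brain regions. The members were the probe sets that the platform annotation assigns to 1 of these genes and to no other gene, 8 probe sets in all: 2 for Gfap, 3 for Vim and 3 for Nes. They stand for 3 of the 12393 genes that could be named on the array. The cultures came from hippocampus (HC), olfactory bulb (OB), subventricular zone (SVZ, a germinal layer beside the lateral ventricle) and ventral mesencephalon (VM, the floor of the midbrain) of CD-1 pups, an outbred mouse stock, at postnatal day 3. All 4 were untreated monolayers in medium with 10% serum, and shaking at 200 rpm had been used to enrich astroglia. Tissue was pooled over pups, 3 or 4 by different sentences of the submitters' description, and each region was measured on 1 Affymetrix array.

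Intermediate filaments are built from elongated proteins whose central rod domains pair into coiled coils and assemble into ropes. Gfap, the glial fibrillary acidic protein, is the filament of mature and reactive astrocytes. Vim, vimentin, is carried by immature glia and also by fibroblasts, endothelial cells and macrophages. Nes, nestin, is a large filament protein of neural stem and progenitor cells that cannot form filaments alone and joins vimentin. Astrocytes in serum culture are known to carry Gfap and Vim together, and Nes returns in reactive astrocytes.

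The DNA around the annotated start of each gene is shown because Gfap is a classical target of STAT factors, whose pathway is described further on. The sequences are RefSeq's, build GRCm38.p6, and run 5′ to 3′ on the gene's own strand from 250 bases before the start to 20 bases into the gene. Capitals mark matches on either strand to TTCNNNGAA (the STAT motif), TGANTCA (AP-1), CCAAT (the CCAAT box), GGGCGG (the GC box) or TATAAA (the TATA box). The Gfap window lies at chr11:102897181-102897450 on the minus strand, that of Vim at chr2:13574061-13574330 on the plus strand and that of Nes at chr3:87970843-87971112 on the plus strand.
Gfap: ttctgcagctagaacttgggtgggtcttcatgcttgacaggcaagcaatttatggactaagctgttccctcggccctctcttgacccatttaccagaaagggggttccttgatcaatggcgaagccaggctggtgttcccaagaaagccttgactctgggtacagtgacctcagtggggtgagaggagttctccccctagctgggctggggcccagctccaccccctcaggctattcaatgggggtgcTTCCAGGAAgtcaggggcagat
Vim: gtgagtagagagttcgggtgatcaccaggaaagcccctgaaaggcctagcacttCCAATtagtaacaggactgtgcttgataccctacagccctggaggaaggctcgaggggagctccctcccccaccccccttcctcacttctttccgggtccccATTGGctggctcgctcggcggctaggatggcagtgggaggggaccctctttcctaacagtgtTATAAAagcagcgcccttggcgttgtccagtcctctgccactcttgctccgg
Nes: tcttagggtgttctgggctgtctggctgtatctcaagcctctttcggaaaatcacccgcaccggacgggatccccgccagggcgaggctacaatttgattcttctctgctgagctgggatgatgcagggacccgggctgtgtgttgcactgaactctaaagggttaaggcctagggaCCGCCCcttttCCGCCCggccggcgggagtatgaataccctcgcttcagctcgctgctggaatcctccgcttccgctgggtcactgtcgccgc

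The Gfap window held 1 of these motifs, a STAT match that begins 2 bases before the start and ends 7 bases into the gene. A STAT match was found in 7.58% of the 32851 mouse windows of this length. Vim had a TATA box match beginning 32 bases before the start and 2 CCAAT matches, beginning 196 and 94 bases before it. Nes had 2 GC box matches, beginning 73 and 62 bases before the start. A TATA box match was found in 12.9% of all windows, a CCAAT match in 35.4%, a GC box match in 34.1% and an AP-1 match in 7.23%. No AP-1 match lay in the window of any of the 3 genes. A match describes these letters and is not a bound site. The windows leave out DNA further from the start, so sites there would not be seen. The Gfap match is not shown to be the element through which STAT factors are known to act.

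The values are signal intensities on a linear scale, already scaled by the depositors so that the 2% trimmed means were 400.1 to 400.2 on the 4 arrays. A floor of 122.1, the median of all signals, stands in for detection calls, and signals under it were set to it ahead of the log2 step. Since each region had 1 array, differences could not be set against replicates, and p-values are not given. The only spread at hand is that between probe sets of the same gene, 0.22 (median-based SD of a log2 difference between 2 regions, from 1972 genes). The plain SD of the same differences was 0.29. Both probe sets of a gene are read on the same arrays, so effects common to an array are not in either value. The spread between cultures is not in them either. The medians of the hybridisation control signals were 728 on the HC array, 876 on the OB array, 1296 on the SVZ array and 1121 on the VM array, and their part in the results was not tested.

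The label of astrocytes was checked on 20 astrocyte markers. Of these, 18 exceeded the floor somewhere, among them Slc1a3, a glutamate transporter, Aqp4, the water channel, Glul, glutamine synthetase, Gja1, the main astrocyte connexin, Sox9, a glial transcription factor, and Aldh1l1, a folate enzyme, on all 4. The calcium-binding protein gene S100b was above it in HC and OB only, and Slc1a2, a further glutamate transporter of glia, lay below it everywhere, with 82.9 as its highest signal. The summed signal of the list was 65796 in HC, 50464 in OB, 53595 in SVZ and 27184 in VM.

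Gfap differed most of the 3. Its brighter probe set, 1426508_at, read 10027 in HC, 3800.2 in OB, 3112 in SVZ and 1007 in VM. Its other probe set, 1426509_s_at, whose suffix marks probes that may also match related sequences, read 9668, 2874, 1932 and 678 in the same order. Both put HC first and VM last, with OB and SVZ close together between them.

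**Figure D1:**
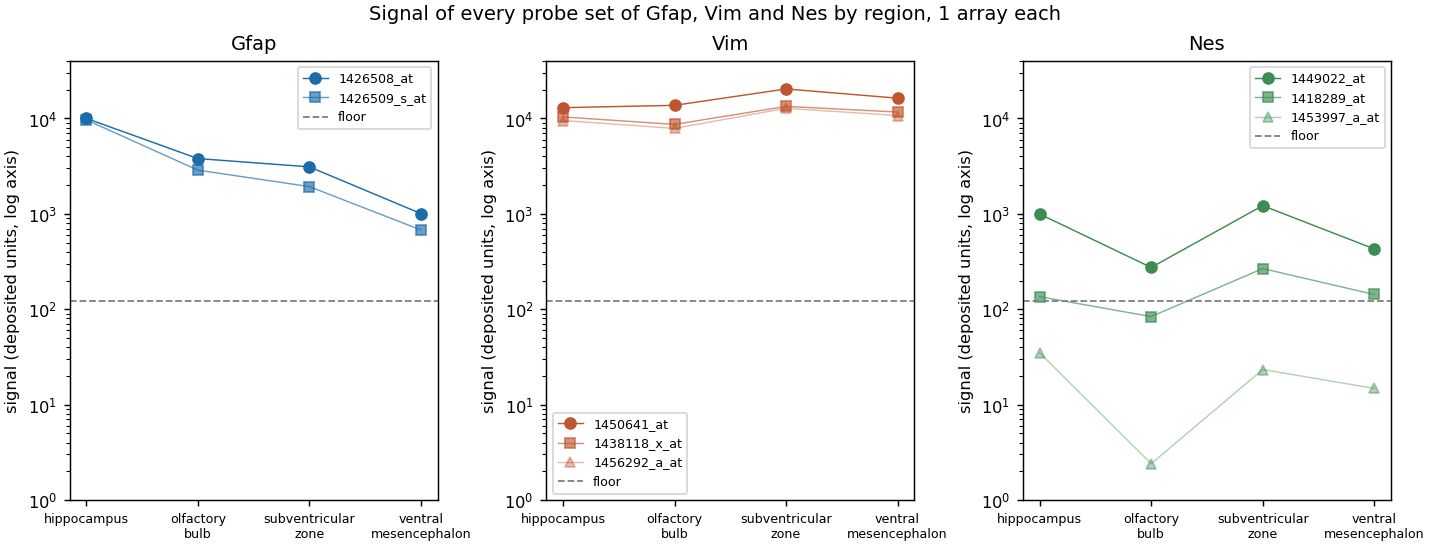
Signal of each of the 8 probe sets (points, joined by lines to guide the eye) in the 4 cultures, 1 array each; the vertical axis is logarithmic and the dashed line is the floor of 122.1. Gfap by 1426508_at is at 10027 in HC and 1007 in VM, the 3 Vim probe sets stay between 7872 and 20416, and Nes is lowest in OB by 1449022_at and 1418289_at.

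By 1426508_at Gfap was 2.64-fold higher in HC than in OB, 3.22-fold higher than in SVZ and 9.95-fold higher than in VM. By 1426509_s_at the same folds were 3.36, 5.0 and 14.3, so both probe sets gave one order and the second gave wider gaps. Gfap in OB was 1.22-fold higher than in SVZ by the first and 1.49-fold by the second, a log2 difference of 0.29 and 0.57. The first of these is close to the probe set spread of 0.22 and the second beyond it, and with 1 array each these neighbours in the order are not shown to differ. OB was 3.77-fold and 4.24-fold, and SVZ 3.09-fold and 2.85-fold, higher than VM. The widest disagreement between the 2 probe sets in a difference between regions was 0.64 (log2), for HC and SVZ.

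A gene was called in a region when it was at least 2-fold above the highest or below the lowest of the other 3. Of the 3 members only Gfap was called, higher in HC (2.64-fold over OB) and lower in VM (3.09-fold under SVZ). Of all 12393 genes, 1.61% were called higher in HC, 1.2% in OB, 0.823% in SVZ and 1.01% in VM. The shares called lower were 0.315%, 1%, 0.654% and 0.363% in the same order. Genes below the floor on all arrays cannot be called, and 7987 of the 12393 passed it on 1 array or more. For a list mostly above the floor, shares of all genes are therefore a low background. A signal from a mixed culture cannot tell fewer cells of a type from less RNA per cell, for Gfap as for every other gene here.

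Vim varied little. Its brightest probe set, 1450641_at, read 12993 in HC, 13737 in OB, 20416 in SVZ and 16336 in VM. The probe set 1438118_x_at read 10386, 8669, 13394 and 11697 in the same order, and 1456292_a_at read 9525, 7872, 12804.5 and 10737.5. All 3 put SVZ first and VM next.

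The bottom of the Vim order depended on the probe set. In HC Vim was 1.06-fold lower than in OB by 1450641_at, a log2 difference of -0.08, but 1.20-fold higher by 1438118_x_at (0.26) and 1.21-fold higher by 1456292_a_at (0.27). Only the last 2 exceed the probe set spread of 0.22, and not by much. SVZ stood above VM by 1.25-fold, 1.15-fold and 1.19-fold in the 3 probe sets, log2 differences of 0.32, 0.20 and 0.25 that are again close to that spread. The full range from the highest to the lowest region was 1.57-fold, 1.55-fold and 1.63-fold, so no pair of regions was 2-fold apart in Vim by any of them.

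The Vim order also leaned on the scaling. 1450641_at was the brightest of all 22690 probe sets on the HC and SVZ arrays and second on the others. Because its rank barely differs, quantile normalization, which gives equal ranks equal values, left a range of 1.07-fold and set HC level with SVZ and gave 0.10 for HC minus VM in log2, against -0.33 as deposited. The median range of the 100 genes of highest mean signal was 0.59 (log2), against 0.65 for Vim, and 14 of the 100 had a range of 2-fold or more. Whether signals this high still follow the amount of RNA was not tested.

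Nes followed yet another pattern. Its brightest probe set, 1449022_at, read 995 in HC, 274 in OB, 1219 in SVZ and 429 in VM. The probe set 1418289_at, close to the floor, read 135, 83.7, 267 and 143 in the same order. The third, 1453997_a_at, read 34.9, 2.4, 23.3 and 14.8 and lay below the floor on all 4 arrays, so its order is not used. By the first 2 SVZ was highest and OB lowest.

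The probe sets of Nes disagreed on HC. By 1449022_at it was 2.32-fold higher in HC than in VM, while by 1418289_at it was 1.06-fold lower, a disagreement of 1.29 in log2 and several times the probe set spread. In SVZ Nes was 2.84-fold higher than in VM by the first and 1.87-fold higher by the second. In OB it was 4.44-fold lower than in SVZ by the first and at least 2.19-fold lower by the second, where OB was below the floor. HC was 1.22-fold lower than SVZ by the first, a log2 difference of -0.29 that is not far beyond the probe set spread, and 1.97-fold lower by the second.

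**Figure D2:**
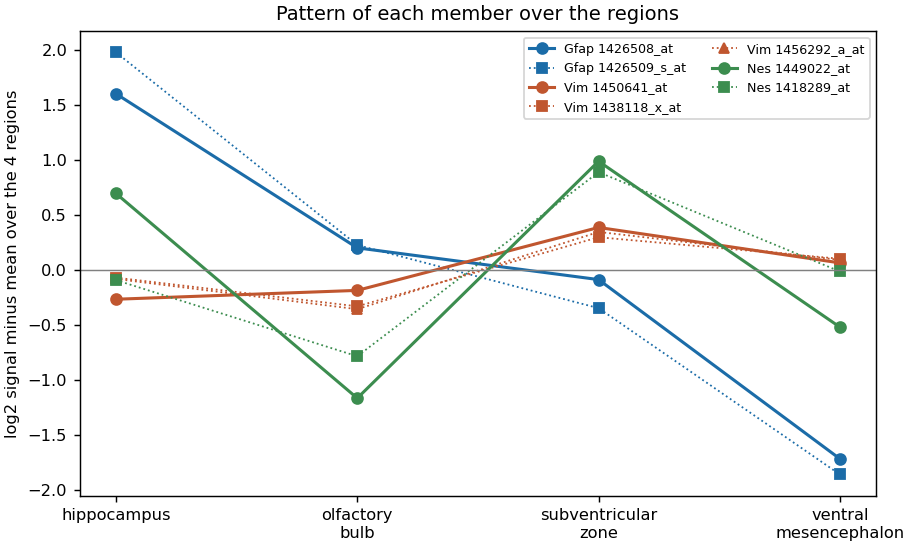
log2 signal of each probe set minus its own mean over the 4 regions, with no floor; solid lines are the probe sets of highest mean signal and dotted lines the others, and 1453997_a_at is left out. Gfap is highest in HC (1.60 by 1426508_at) and lowest in VM (-1.71), Vim stays within 0.39 of its mean, and Nes peaks in SVZ (0.99 by 1449022_at) with its 2 lines apart in HC.

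The 3 genes differed unequally between the cultures. Of the 6 pairs of regions Gfap was 2-fold or more apart in 5, Nes in 4 and Vim in 0, taking each gene's probe set of highest mean signal. All genes on the array were that far apart, in either direction, in 8.97% of cases between HC and OB, 7.4% between HC and SVZ, and 10.4% between HC and VM. The shares were 11.2% between OB and SVZ, 7.73% between OB and VM and 6.71% between SVZ and VM. By 1418289_at Nes was 2-fold apart in 1 pair, OB and SVZ.

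Relative to Vim, Gfap was 12.5-fold higher in HC than in VM (3.65 in log2, and 3.49 to 4.16 over the 6 combinations of their probe sets). It was 5.06-fold higher in HC than in SVZ (2.05 to 2.98 in log2 over the combinations) and 4.49-fold higher in OB than in VM (2.17 to 2.53). In all 6 pairs the earlier region of the order HC, OB, SVZ, VM had more Gfap relative to Vim. These ratios show unequal differences between cultures and not the amount of either protein.

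Gfap and Nes parted in OB. There Gfap relative to Nes was 5.43-fold higher than in SVZ (1.42 to 2.73 in log2 over 4 combinations) and 5.90-fold higher than in VM (2.14 to 2.73). Between SVZ and VM the log2 difference was 1.63 for Gfap and 1.51 for Nes, a gap of 0.12 that ran from 0.00 to 0.73 over the 4 combinations, so whether the genes differed alike there depends on the probe sets. Between HC and OB the sign depended on the Nes probe set, with Gfap minus Nes at -0.46 to 1.60 in log2. The ends 1.42, 2.14 and 1.60 come from 1418289_at, whose OB signal of 83.7 was raised to the floor. For HC minus OB this probe set gave 0.15 in log2 with the floor and 0.69 without it.

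Against the spread of all genes, Gfap and Nes were among the more variable and Vim was not. The difference between the highest and the lowest region was 3.32 (log2) for Gfap, wider than in 97.5% of the 7987 genes that passed the floor on 1 array or more, with 202 genes wider. It was 2.15 for Nes, wider than in 92.2%, with 621 genes wider, and 0.65 for Vim, wider than in 46.7%. The median over these genes was 0.69, and 31.0% of them had a range of 2-fold or more. By its second probe set the range of Nes was at least 1.13.

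**Figure D3:**
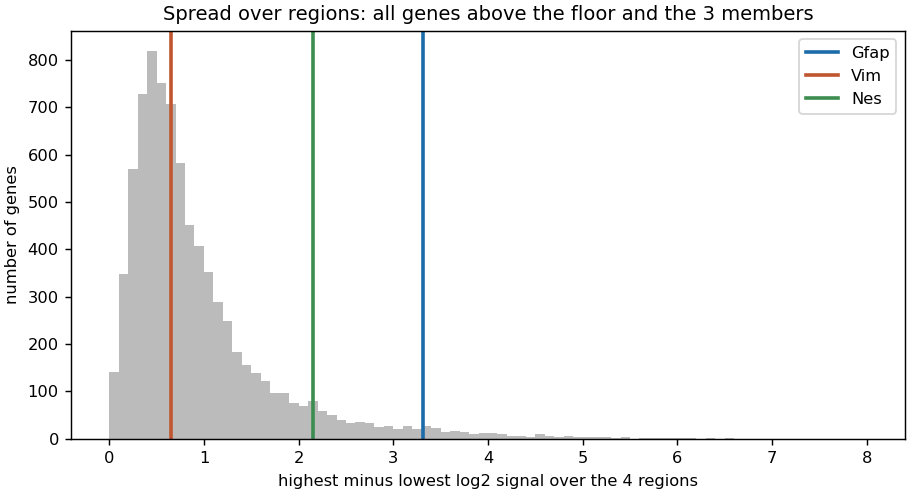
Number of genes (bars, 7987 in all, those that passed the floor on 1 array or more) by the difference between their highest and lowest log2 signal over the 4 regions; coloured lines mark the 3 members. Vim at 0.65 lies in the bulk, close to the median of 0.69, with Nes at 2.15 and Gfap at 3.32 in the right tail.

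The genes with the pattern most like each member were those with the smallest root mean square difference of log2 signals over the 4 regions, after each gene was centred on its own mean, among 6048 genes above the floor on all arrays. Nearest to Gfap were Aldoc, the brain aldolase of astrocytes (difference 0.23), Ntrk2, the receptor of brain-derived neurotrophic factor (0.23), the glutamine transporter gene Slc38a3 (0.30), the phospholipase gene Plce1 (0.32) and Sirpa, a membrane receptor of myeloid cells and neurons (0.33). Aldoc read 5221 in HC, 2884 in OB, 1594 in SVZ and 564 in VM. Ntrk2 read 3787, 973, 843 and 341. Both kept the region order of Gfap, and Aldoc is in the astrocyte marker list too.

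Nearest to Nes were Pbk, a kinase of dividing cells (0.04), Sap30, a subunit of the Sin3 histone deacetylase complex (0.09), the proton pump subunit gene Atp6v0e2 (0.09), Syt11, a synaptotagmin (0.10), and Rdh10, an enzyme of retinoic acid synthesis (0.11). Pbk read 974 in HC, 281 in OB, 1171 in SVZ and 418 in VM. Nearest to Vim were Yars, a tRNA synthetase (0.01), Atpaf2, an assembly factor of ATP synthase (0.02), the mitochondrial glutamate carrier gene Slc25a22 (0.04), Ghitm (0.04) and Rmdn3 (0.05). A flat pattern has many neighbours: 932 genes lay within the probe set spread of 0.22 from Vim, 19 from Nes and 0 from Gfap. By likeness to Nes, Vim was number 1685 of the 6048 genes, and by likeness to Gfap, Nes was number 2425 and Vim number 4616. The likeness rests on 4 arrays and is a description.

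**Figure D4:**
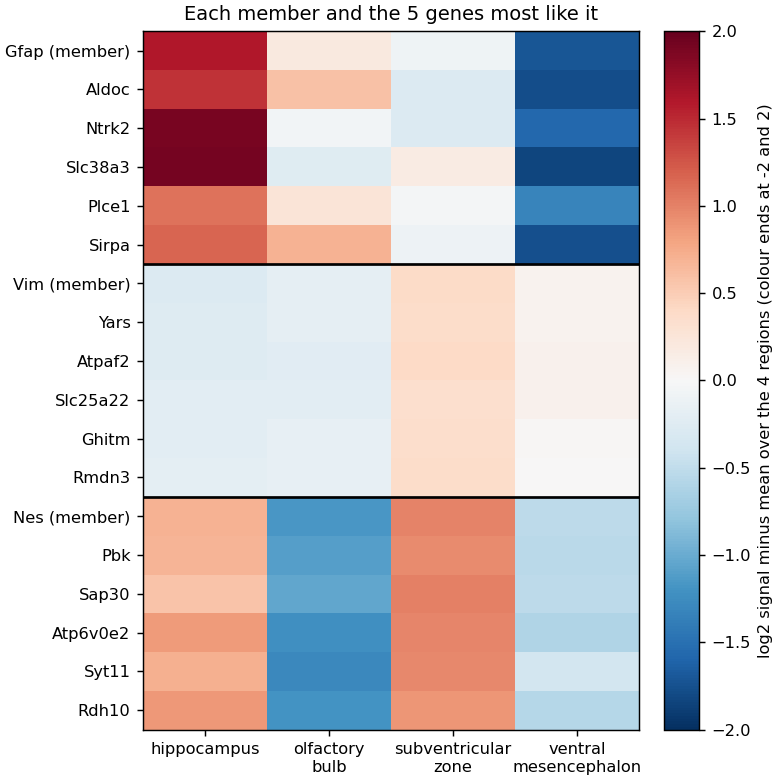
log2 signal minus the mean over the 4 regions (colour, from -2 to 2) for each member and the 5 genes with the smallest root mean square difference to it. The Gfap block is high in HC and low in VM, the Vim block is pale throughout, and the Nes block is low in OB and high in SVZ and HC.

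Other filament genes were mostly below the floor. Of 15 further intermediate filament genes named on the array, 5 exceeded it on at least 1 array and none was called in a region. Lmna, the A-type lamin of the nuclear envelope, read 1192 in HC, 2119 in OB, 1181 in SVZ and 2298 in VM. Lmnb1, a B-type lamin, read 284, 96.2, 163 and 121 in the same order. The epithelial keratin genes Krt8 and Krt18 passed the floor in HC only (134 and 125) and Krt19 in VM only (187). Des, the muscle filament, Prph, the peripheral neuron filament, and the neurofilament genes Nefl, Nefm and Nefh were below the floor on all 4 arrays, so of the cytoplasmic filament genes listed, Gfap, Vim and Nes alone had signals above it in more than 1 culture. Prph, Nefl, Nefm, Nefh, Des and Krt18 were chosen for naming after their values were seen.

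Of 23 genes for linkers, chaperones and modifying enzymes of filaments, 19 exceeded the floor and 2 were called in a region, 8.7% of the list, close to the 6.53% of all genes. Padi2, which converts arginine to citrulline and has Gfap and Vim among its known substrates, read 1118 in HC, 477 in OB, 81.1 in SVZ and 115 in VM. It was 2.34-fold higher in HC than in OB, the next region, and was below the floor in SVZ and VM. Cdk1, the mitotic kinase that phosphorylates Vim and Nes, read 1250, 428, 1055 and 1014 and was 2.37-fold lower in OB than in the next lowest region. The median range of the list was 1.14 (log2).

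Signals and factors known to act on Gfap were read as a list, whichever way they act on it. Of 39 such genes on the array 35 exceeded the floor and 6 were called in a region, 15.4% of the 39, against that 6.53% of all genes. The 6.53% takes in the many genes that never passed the floor, so it is a low background for this list. The median log2 distance between a region and the average of its 3 counterparts was 0.05 in HC, 0.05 in OB, 0.24 in SVZ and 0.06 in VM. Over all genes above the floor that median was 0.01, -0.02, -0.02 and -0.06 in the same order. HC, first in Gfap, held the highest signal of 6 of the 35, OB of 8, SVZ of 12 and VM of 9. The list mixes genes that favour Gfap, such as Stat3, with genes that restrain it, such as Socs3 and Dnmt1. Its medians and counts would therefore not have to follow Gfap, and control of Gfap by these genes was not tested.

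Il6, a cytokine of the gp130 and STAT3 route, which drives Gfap in development and injury, was highest where Gfap was lowest. It read 50.4 in HC, 42 in OB, 649 in SVZ and 5495 in VM, where it was 8.46-fold higher than in the next region. Clcf1, another cytokine of that family, read 430, 95.2, 786 and 418 and was at least 3.42-fold lower in OB than elsewhere. Il6ra, the receptor chain for Il6, read 116, 62.2, 256 and 102 and was at least 2.09-fold higher in SVZ. Stat3 itself, not called and named after its values were seen, read 2130, 3539, 4414 and 2866, lowest in HC. Of the 35 genes of the list above the floor, HC was highest in 6 and lowest alone in 6, so Stat3 does not stand for the list.

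Of the other called genes, 2 were low in HC. Rest, a repressor of neuronal genes, read 248 in HC, 611 in OB, 610.2 in SVZ and 580.4 in VM, 2.34-fold lower in HC than in the next region. Hes1, a Notch effector, read 130, 466, 660 and 702, 3.59-fold lower in HC. Bmp4, a ligand that favours astrocyte fate, read 417, 1886, 195 and 1752 and was 2.14-fold lower in SVZ than in the next lowest region. These are values on single arrays, and their bearing on Gfap was not tested.

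Genes that rise with Gfap in reactive astrocytes formed another pattern. Of 25 on the array 24 exceeded the floor and 14 were called in a region, 56% of the list, against 6.53% of all genes. Here too the share of all genes takes in those that never passed the floor. A high share was not particular to this list. Among the cell type marker lists it was 75% for fibroblast, 58.8% for progenitor, 40% for astrocyte and 10.5% for microglial markers. Of the 14 called reactive genes, 8 were lower in OB (1% of all genes), 3 higher in VM (1.01%), 2 higher in HC (1.61%) and 1 higher in SVZ (0.823%). Lcn2, a secreted iron-siderophore carrier, read 6298 in HC, 694 in OB, 17145 in SVZ and 10077 in VM. Serpina3n, a protease inhibitor, read 1044, 193, 1918 and 713. Both were lowest in OB, which was second in Gfap and lowest in Nes.

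The list's median distance from the other regions was close to 0 in HC, -1.04 in OB, 0.18 in SVZ and 0.64 in VM. Beside Lcn2 and Serpina3n, the calls in OB were the chemokine gene Cxcl10, the adhesion receptor gene Cd44, the transcription factor gene Cebpd, Emp1, Ptx3 and Clcf1, which is in the upstream list too. VM, lowest in Gfap, had Timp1, a metalloprotease inhibitor, Gbp2, an interferon-induced GTPase, and Ptgs2, a prostaglandin synthase, higher. HC had Srgn, a proteoglycan of blood cells, and Cd14, a receptor for bacterial lipopolysaccharide on myeloid cells, higher, and SVZ had Steap4, a metalloreductase.

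The markers of cell types that carry these filaments also differed between the cultures. Of 17 progenitor markers on the array 16 exceeded the floor, and their summed signal was 34384 in HC, 18373 in OB, 50349 in SVZ and 24900.5 in VM. The sum was highest in SVZ, where Fabp7 (14077), Ccnd2, a cyclin (10897), and Vcam1 (7483) were its brightest genes, while HC held the highest signal of 9 of the 16 genes, against 5 in SVZ, and the higher median log2 distance from the other regions (0.99, against 0.92 in SVZ). OB had the lowest sum and the lowest median (-1.37), and VM a median of -0.37. In OB 5 of the 17 were called lower, against 1% of all genes: Sox2, the neural stem cell factor, Fabp7, the fatty acid-binding protein of radial glia, Prom1, a stem cell membrane protein, Tnc, a matrix glycoprotein, and Vcam1, an adhesion molecule. Sox2 read 2854 in HC, 348 in OB, 2512 in SVZ and 968 in VM, and was 2.78-fold lower in OB than in the next lowest region. Going the other way, 1 of the 17, the receptor gene Egfr, was called higher in OB, by 2.43-fold (1.2% of all genes). In HC 3 were called higher (1.61% of all genes) and in SVZ 3 (0.823%), among the latter Fabp7 and Vcam1. The astrocyte list, which does not hold Gfap and shares Slc1a3 with the progenitor list, had VM lowest alone in 9 of 18 genes and OB in 4. HC was lowest alone in 0 of them. HC was highest in 8 and OB in 7, so at the high end these counts hardly set HC apart from OB. The list's median log2 distance from the other regions did separate them, at 0.71 in HC, -0.10 in OB, 0.37 in SVZ and -1.04 in VM.

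**Figure D5:**
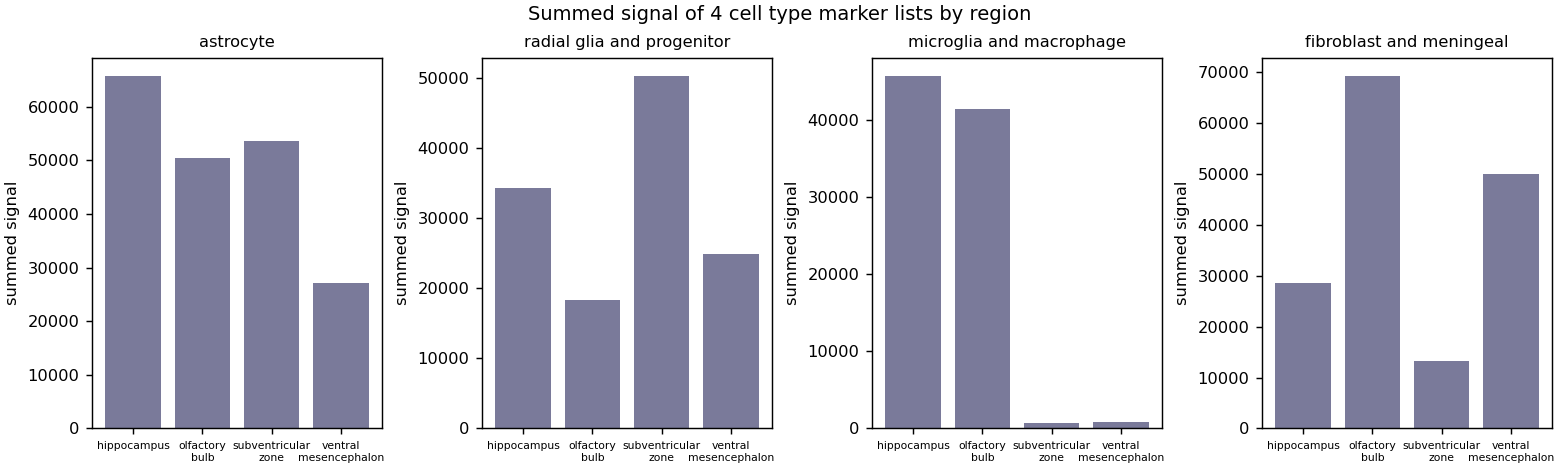
Summed signal (bars) of the marker genes of 4 cell types on each array. The astrocyte sum is highest in HC (65796), as Gfap is, the progenitor sum is highest in SVZ (50349) though more of its genes are highest in HC (9, against 5 in SVZ), and the microglial and fibroblast sums differ between regions by more than either.

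Microglial markers were far higher in HC and OB than in the other cultures. All 19 microglia and macrophage markers on the array exceeded the floor on at least 1 array, with summed signals of 45755 in HC, 41419 in OB, 702 in SVZ and 769 in VM. HC and OB were also the cultures with the highest Gfap signals and, by 1450641_at, the lowest Vim signals. The 20 fibroblast and meningeal markers, 19 above the floor, summed to 28608 in HC, 69364 in OB, 13312 in SVZ and 50072 in VM, lowest in SVZ, where Vim was highest, and higher in OB and VM, where Nes by 1449022_at was lowest. No marker of these or the other lists was at 0 on any array. The part of these cells in the signals of Gfap, Vim and Nes was not tested.

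Marker lists of other cell types were read in the same way. Of 10 endothelial markers 1, Cdh5, exceeded the floor, on the VM array only (255), and of 8 muscle markers none did on any array. The 6 of 11 pericyte and smooth muscle markers above the floor came with sums of 18782 in HC, 18924 in OB, 19957 in SVZ and 20536 in VM. Acta2 and Tagln led these sums, which hide differences in other members. In OB Cnn1 was called 5.91-fold lower and Rgs5 4.02-fold higher, 18.2% of the list against 6.53% of all genes. The 12 neuronal markers, 5 above the floor, summed to 1675, 777, 6190.3 and 1885 in the same order. The 9 oligodendrocyte lineage markers summed to 6907, 2364, 5769 and 2116, and the 10 markers of olfactory ensheathing and Schwann cells to 10271, 5181, 15895 and 6099.9, a sum that Fabp7 of the progenitor list leads with 14077 in SVZ.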

How the data were processed

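Gene expression was measured in 4 astrocyte cultures, 1 per brain region, with 1 Affymetrix array each, and groups were taken from the sample titles. The deposited values are linear signal intensities for 22690 probe sets, made with GCOS 1.4 per the submitters' processing notes; no source used here gives the algorithm or target value. Scaling to a common mean makes each signal relative to the rest of its culture. The table gives no detection calls, so a floor of 122.1 (the median signal) was used. The number of arrays limits the precision.

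Probe sets with 1 symbol in the platform annotation, 20380 in all, were used, of which 20351 matched a RefSeq gene by identifier. The probe set brightest on average (mean of log2) stood for its gene, and every probe set of Gfap, Vim and Nes is also given. Calls need a 2-fold gap (1 in log2). No test was possible with 1 array per region. The calling and likeness steps were run on simulated data with planted shifts, which checks the code and not the calls made here.

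Named genes are list members called in a region, or the 4 with the widest range where fewer than 2 were called, the 5 genes most like each member and 8 astrocyte markers; of the reactive and marker lists, values are given for some. The members and lists were chosen with earlier results of these data known. Alternatives were the floor, an offset of 50, 2 other scalings, 4 choices of probe set, a 1.5-fold rule, leaving out each region, and a wider pool for likeness. Python 3.11.15, numpy 2.4.6, pandas 2.3.3 and matplotlib 3.10.9 were used.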

Additional observations from a re-analysis of the deposited data

How the results depend on the processing

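No paired analysis was possible because the regions share only replicate number 1, with 1 array each, and a block needs at least 2 shared numbers. Each value rests on 1 pooled culture, so the spread between cultures is unknown, and signals near the floor, such as those of 1418289_at, carry the least precision. All values here are log2 differences. The 9 pair differences of 2-fold or more in the 3 genes had 72 values under the alternatives: 71 kept their sign and 66 stayed 2-fold apart. Those that fell under 2-fold were all of Nes, with the mean of all probe sets or with the second probe set. There only OB and SVZ stayed 2-fold apart in Nes. Without a floor or with plain _at probe sets the values of the 3 genes were the same by construction. The probe sets that stand for these genes end in plain _at and lie above the floor on every array. These settings are counted among the 72 values but say nothing on stability. With an offset of 50, or centred on the median, no difference or range of the 3 genes moved by more than the probe set spread of 0.22. The third Vim probe set was added as an alternative after seeing the data. The causes of the shifts below were not tested, except where an array or probe set was exchanged.

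With the floor at the 70th percentile, Nes was 1.47 for HC minus OB, -1.76 for OB minus SVZ and -0.25 for OB minus VM, with a range of 1.76 and a gap of -0.25 below the next region in OB. Quantile normalization gave Gfap 1.80, 2.05 and 3.67 for HC minus OB, SVZ and VM, a range of 3.67 and an HC gap of 1.80. It gave Vim 0 for HC minus SVZ, 0.10 for HC minus VM, -0.10 for OB minus SVZ, 0 for OB minus VM, a range of 0.10 and an SVZ gap of 0.

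With the mean of all probe sets, Gfap was 2.01 for HC minus SVZ and 3.57 for HC minus VM and in range, and Vim was 0.15 for HC minus OB. Nes was then 0.67 for HC minus OB, 0.38 for HC minus VM, -1.09 for OB minus SVZ, -0.29 for OB minus VM and as the OB gap, and 0.80 for SVZ minus VM, with a range of 1.09 and 1 pair 2-fold apart.

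With the second probe set, Gfap was 1.75, 2.32 and 3.83 for HC minus the other regions, 0.57 for OB minus SVZ, 3.83 in range and 1.75 in the HC gap, and Vim was 0.26 for HC minus OB and -0.37 for HC minus SVZ. Nes was 0.15 for HC minus OB, -0.98 for HC minus SVZ and, with the sign reversed, -0.079 for HC minus VM. Its other values were -1.13 for OB minus SVZ, -0.23 for OB minus VM, 0.90 for SVZ minus VM and as the SVZ gap, 1.13 in range and -0.15 as the OB gap, with 1 pair 2-fold apart. The third Vim probe set gave 0.27 for HC minus OB and -0.43 for HC minus SVZ.

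Without the HC array the Gfap range was 1.92 and the Nes the SVZ gap 1.51. Without the OB array the Nes range was 1.51 and the Gfap the HC gap 1.69. Without the SVZ array the ranges were 0.33 for Vim and 1.86 for Nes and the Gfap the VM gap -1.92. Without the VM array the Gfap range was 1.69, the Vim the SVZ gap 0.57 and the Nes the OB gap -1.86. At 1.5-fold, 1 pair of regions was apart in Vim. The lists were counted under 12 alternatives, which leave out the exchange of a probe set for a less bright one. Members called in a region then numbered 0 to 8 for the filament family and 2 to 7 for linkers. They numbered 1 to 17 for upstream signals and 11 to 20 for reactive genes. The share of all genes called under each alternative is not given, so these counts cannot be set against a background. With the wider pool of genes that passed the floor on 1 array or more, 3 of the 5 nearest genes were shared for Gfap, 2 for Vim and 4 for Nes.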
